A study of Mus musculus with 6 samples.

Results

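The enzymes that bring pyruvate into the citric acid cycle and turn the cycle were followed in mouse kidney through 9 genes, chosen by symbol from the 55450 genes of the count table. They are Pdha1 and Pdk4 at the entry of pyruvate, and Cs, Idh2, Idh3a, Ogdh, Suclg1, Fh1 and Mdh2 within the cycle. The rule that picks them uses only their symbols, although the list was drawn up with earlier results of these data known. The kidney mRNA came from male C57BL/6J wild type mice that were 7 weeks old when purchased, in a model of uric acid-induced kidney injury. The 3 control mice, labelled with 20% PEG as their treatment, were taken as day 0, because the design equates day 0 with control. The study's methods sacrifice each group at its own day. Differences in age or in weeks of gavage can therefore not be told apart from the treatment. The 3 mice of the day 21 group received adenine at 0.16 g/kg and potassium oxonate at 2.4 g/kg by gavage every day. The RNA came from kidney tissue as a mixture of cells, so fewer cells of a type and less RNA per cell cannot be told apart.

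The pyruvate dehydrogenase complex of the mitochondrion converts pyruvate into acetyl-CoA, which citrate synthase joins to oxaloacetate at the start of the citric acid cycle. The later enzymes oxidize citrate stepwise back to oxaloacetate and hand electrons to the respiratory chain. The proximal tubule, the most abundant epithelium of the kidney cortex, is rich in mitochondria and depends on this oxidation for the transport it carries out.

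All 9 genes were lower in the day 21 kidneys, with 7 called and none called higher. A gene was called when the edgeR quasi-likelihood test gave a Benjamini-Hochberg adjusted p under 0.05 over the 16592 genes tested and the fold exceeded 1.5. By this rule 15.5% of all genes tested were called lower and 19.6% higher. The 7 genes that fell were Pdk4, Idh2, Ogdh, Suclg1, Pdha1, Fh1 and Mdh2, whereas Cs and Idh3a missed the fold limit. The adjusted p was under 0.05 for 9 of the 9 genes, against 21.7% of all genes tested that were lower at any fold. In 9 of the 9, each day 21 mouse lay below each day 0 mouse, which held for 26.4% of all genes tested. The members' median log2 fold change was -0.95, and over all genes tested the median was 0.03. An exact permutation test of 3 mice against 3, two-sided, cannot go below p = 0.1, which is what each of the 9 genes gave.

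**Figure D1:**
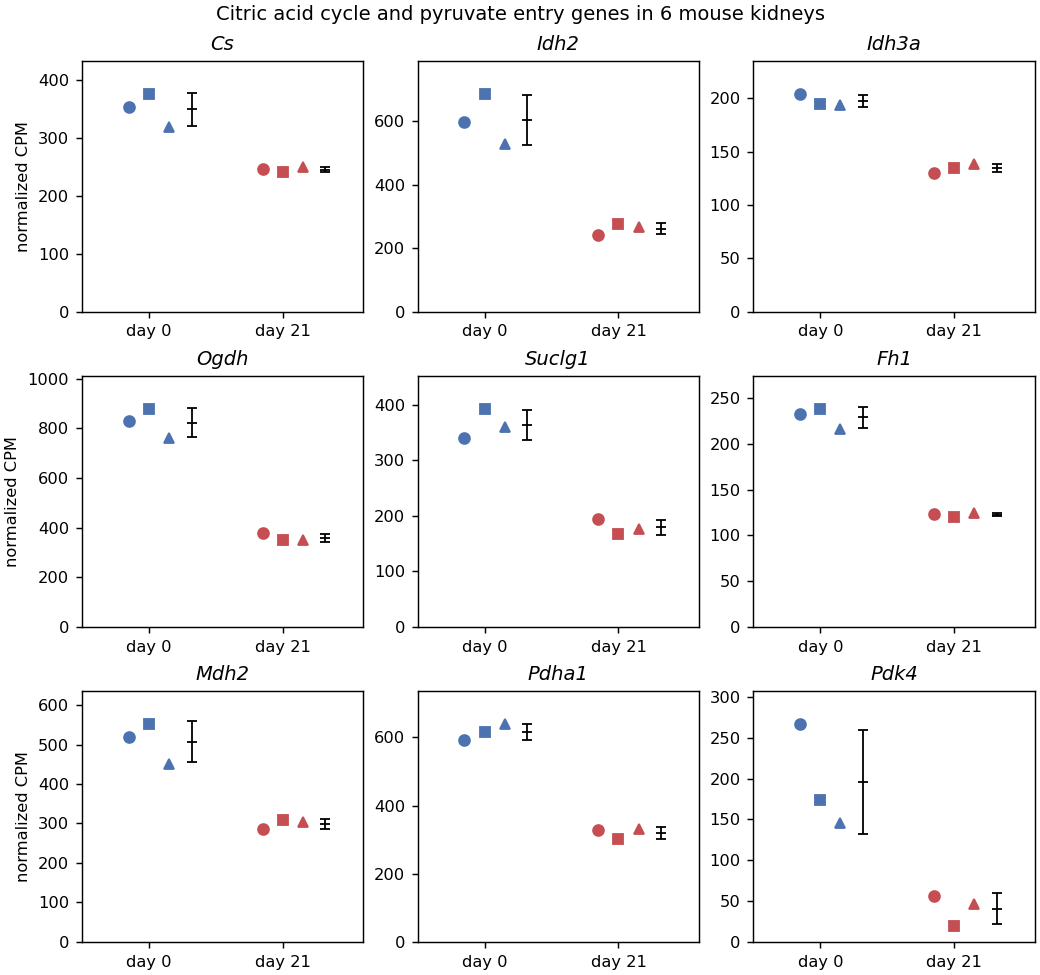
Normalized CPM (vertical axes, from 0) of the 9 genes in 3 mice at day 0 (blue) and 3 at day 21 (red), with circles, squares and triangles for replicates 1, 2 and 3 and the black mark and bar for the mean ± SD. In 9 of 9 panels the day 21 mice sit below the day 0 mice, by the widest ratio for Pdk4, where the means were 195.8 and 40.8.

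The upstream sequences of Cs and Pdk4 are shown because these were the genes with the smallest and the largest log2 fold change of the 9. Both come from RefSeq promoter windows (250 bases before a transcript start to 50 after it, GRCm38.p6) and were kept to the bases outside annotated exons. The Cs stretch, 250 bases on the plus strand at chr10:128337477-128337726, and the Pdk4 stretch, 219 bases on the minus strand at chr6:5496310-5496528, run 5′ to 3′.
Cs: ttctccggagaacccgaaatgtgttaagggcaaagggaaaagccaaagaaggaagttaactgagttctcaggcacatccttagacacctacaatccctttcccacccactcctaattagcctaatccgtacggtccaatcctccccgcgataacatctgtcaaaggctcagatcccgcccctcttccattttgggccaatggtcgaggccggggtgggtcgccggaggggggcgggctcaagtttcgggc
Pdk4: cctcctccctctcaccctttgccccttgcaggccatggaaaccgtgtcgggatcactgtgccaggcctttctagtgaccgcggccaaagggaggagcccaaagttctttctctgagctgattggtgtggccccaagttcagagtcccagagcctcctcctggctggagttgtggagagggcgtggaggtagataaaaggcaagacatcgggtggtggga
Neither holds any of the 5 motifs searched, so no letters are in capitals. The motifs, read on both strands, were TCAAGGTCA for the estrogen-related receptors, TGCGCATGC for nuclear respiratory factor 1, CCGGAAG for ETS factors, GTAAACA for forkhead factors and TACGTG for the hypoxia response. They occur in 0.423%, 1.52%, 8.86%, 3.65% and 3.23% of the 32851 windows. These shares are per window, whereas a gene is counted below when any of its windows matched, so the 2 are not directly comparable.
Of the 8 members with a window in the table, Ogdh was the one with a match. It carries the nuclear respiratory factor 1 letters, in capitals here, 16 bases before the fifth of its 6 RefSeq starts, and is shown for that match. The stretch printed, chr11:6292532-6292557 on the plus strand, lies within the span of the gene. Of the 250 bases before that start, 206 are in Ogdh exons. The windows of starts 1 to 4 held no match.
Ogdh: ctaggtgttgTGCGCATGCgtaactc
Such a match describes the letters of the window and no binding was measured. In the 28 of 31 pathway genes with a window, the estrogen-related receptor letters were found in 1 gene, Sdhd, the ETS letters in 6, the hypoxia letters in 1, Pdk3, and the forkhead letters in 0.

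The gene for the first enzyme of pyruvate entry fell. Pdha1 (ENSMUSG00000031299.10, GRCm38 chrX:160122209-160138413, minus strand) encodes the catalytic alpha subunit of pyruvate dehydrogenase. Its normalized CPM (its counts divided by the TMM-scaled library size and put on one scale for all mice) was 594, 616 and 640 in the day 0 mice and 327, 301 and 332 in the day 21 mice. The groups lay far apart, and 51.9% of the day 0 mean was left at day 21. The log2 fold change was -0.95 (SE 0.11), with an edgeR adjusted p of 5.4e-05. Part of this signal cannot be assigned with certainty, since 16.1% of the exon bases of Pdha1 lie in exons of Map3k15 on the opposite strand and the strand setting of the counting is not given in the sources used here. Map3k15 had between 2310 and 3123 counts at day 0 and between 1969 and 2355 at day 21, with a log2 fold change of -0.83. The testis paralog Pdha2 had 0 counts in each of the 6 mice.

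Pdk4 (ENSMUSG00000019577.6, chr6:5483351-5496309, minus strand) encodes a kinase that phosphorylates pyruvate dehydrogenase and switches it off, and is known for its induction in fasting. It had the largest log2 fold change of the 9 and the widest spread between mice. The day 0 mice had 267, 174 and 146 normalized CPM, the first of them far above the other two. The day 21 mice had 56.0, 19.4 and 46.9, so the highest day 21 mouse was still well under the lowest day 0 mouse. The mean fell from 195.8 ± 63.3 to 40.8 ± 19.1 (SD, n = 3 per group), and the log2 fold change was -2.27 (SE 0.35, edgeR adjusted p = 0.00046). By log2 fold change Pdk4 stood at position 233 from the lowest of the 16592 genes tested.

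The other kinases of the complex did not all share this change. Pdk2, the kinase with the highest level per kilobase in both groups, fell with a log2 fold change of -1.34 (SE 0.13, edgeR adjusted p = 2e-05). Pdk3 fell by 0.86 on the log2 scale (SE 0.16, edgeR adjusted p = 0.0015). Pdk1 had between 34.4 and 39.3 normalized CPM at day 0 and between 37.1 and 41.8 at day 21, with a log2 fold change of 0.10 (SE 0.12) and an edgeR adjusted p of 0.52. With library size alone, its log2 fold change was 0.49 (edgeR adjusted p = 0.0072), short of the fold limit. Of the phosphatases, which switch the complex back on, Pdp2 and the regulatory subunit gene Pdpr fell by 0.80 and 1.49 on the log2 scale. Pdp1 was not called, at 0.32 (SE 0.21, edgeR adjusted p = 0.23).

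Per kilobase of the longest coding transcript, the 4 kinase genes together had between 189.8 and 229.5 normalized CPM at day 0 and between 79.1 and 89.1 at day 21. Pdk4 held 34.4%, 21.8% and 22.1% of that sum in the day 0 mice and 18.0%, 7.04% and 16.4% in the day 21 mice. Its share was thus lower in each day 21 mouse, and lowest in replicate 2. The share of Pdk1 was 3.27% ± 0.312 (SD, n = 3) at day 0 and 8.98% ± 1.09 at day 21, with no overlap between the groups. Pdk3 held between 10.2% and 18.6% at day 0 and between 19.3% and 20.7% at day 21. Pdk2 held the largest share in each mouse, at 56.2% ± 4.42 and 57.1% ± 4.67, and its groups overlapped. These shares are given as values, without a test.

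**Figure D2:**
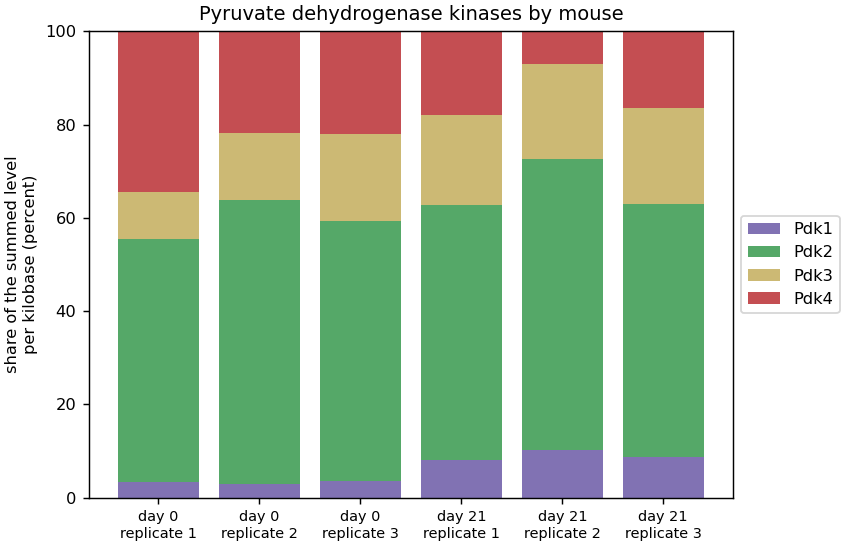
Share of each of the 4 pyruvate dehydrogenase kinase genes in their summed level per kilobase (vertical axis, percent) in each of the 6 mice, 1 bar per mouse. Pdk2 is the largest block in every bar, and the Pdk4 block ranges from 21.8% to 34.4% at day 0 and from 7.04% to 18.0% at day 21.

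Within the cycle, Cs and Idh3a were the genes least changed. Cs (ENSMUSG00000005683.8, chr10:128337734-128362479, plus strand) encodes citrate synthase, whose activity is widely used as a measure of mitochondrial content. It had 353, 377 and 320 normalized CPM in the day 0 mice and 246, 241 and 250 in the day 21 mice. The 3 day 21 mice were nearly alike and lay under all day 0 mice. The log2 fold change was -0.51 (SE 0.11, edgeR adjusted p = 0.003), a fold of 1.43, so that Cs passed the test and missed the fold limit.

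Idh3a (ENSMUSG00000032279.11, chr9:54586334-54604661, plus strand) encodes the catalytic subunit of the NAD-dependent isocitrate dehydrogenase. Normalized CPM was 204, 195 and 194 at day 0 and 130, 135 and 138 at day 21, with a CV between mice of 2.86% and 2.89%. No mouse of one group came near the other group. The log2 fold change of -0.56 (SE 0.10, edgeR adjusted p = 0.0011) corresponded to a fold of 1.47, just under the limit. Without replicate 3 of day 0, both Cs and Idh3a had a log2 fold change of -0.59 and were called, which made 9 of 9.

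Idh2 (ENSMUSG00000030541.16, chr7:80094846-80115392, minus strand) encodes the mitochondrial NADP-dependent isocitrate dehydrogenase, a source of NADPH. It had 597, 686 and 528 normalized CPM at day 0 and 243, 277 and 266 at day 21. The day 21 mice lay close together and far below the lowest day 0 mouse, and 43.4% of the day 0 mean remained. It fell by 1.20 on the log2 scale (SE 0.13, edgeR adjusted p = 3.9e-05). Ogdh (ENSMUSG00000020456.17, chr11:6291633-6356642, plus strand), the first enzyme of the alpha-ketoglutarate dehydrogenase complex, had 828, 878 and 761 normalized CPM at day 0 and 377, 350 and 349 at day 21. The mean left at day 21 was 43.6% of that at day 0. The log2 fold change was -1.20 (SE 0.11), and its edgeR adjusted p of 1.8e-05 was the lowest of the 9.

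Suclg1 (ENSMUSG00000052738.14, chr6:73248382-73276911, plus strand) encodes the alpha subunit that the GTP-forming and the ATP-forming succinyl-CoA ligases share. It had 339, 392 and 360 normalized CPM at day 0 and 194, 168 and 176 at day 21. The log2 fold change was -1.02 (SE 0.11, edgeR adjusted p = 5.2e-05), and 49.3% of the day 0 mean remained. Fh1 (ENSMUSG00000026526.14, chr1:175600374-175625635, minus strand), the fumarate hydratase gene, had 232, 238 and 216 normalized CPM at day 0 and 124, 120 and 124 at day 21. The day 21 mice differed from one another by a CV of 1.64%, the smallest of the 9. Fh1 fell by 0.90 on the log2 scale (SE 0.10, edgeR adjusted p = 5.6e-05).

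Mdh2 (ENSMUSG00000019179.10, chr5:135778480-135790398, plus strand) encodes the malate dehydrogenase that closes the cycle by forming oxaloacetate. It had 519, 552 and 451 normalized CPM at day 0 and 285, 310 and 303 at day 21. Of the 7 genes called it had the smallest log2 fold change, -0.76 (SE 0.11, edgeR adjusted p = 0.00041).

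The 9 genes differed in level as well as in change. Per kilobase of the longest coding transcript, Mdh2 and Idh2 had the highest mean normalized CPM at day 0 (348.4 ± 35.5 and 346.0 ± 45.2), with overlapping mice. Suclg1 at 239.4, Pdha1 at 216.4 and Ogdh at 199.3 came next, each overlapping its neighbour. Cs at 119.6 and Fh1 at 86.8 stood apart from the genes above and below them. Idh3a at 76.6 overlapped Pdk4, the lowest at 56.2. At day 21 the order was Mdh2 (205.7), Idh2 (150.1), Suclg1 (118.0), Pdha1 (112.3), Ogdh (86.9), Cs (83.9), Idh3a (52.1), Fh1 (46.6) and Pdk4 (11.7). Mice overlapped between Suclg1 and Pdha1 and between Ogdh and Cs, while Mdh2 now lay above Idh2 and Idh3a above Fh1 in all mice.

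Replicate 2 of day 0 had the highest day 0 value in 6 of the 9 genes, and replicate 3 of day 0 the lowest in 7. The 5 adipocyte markers (Adipoq, Plin1, Cidec, Lep and Ucp1) summed to 17.4 normalized CPM in replicate 3 of day 0 against at most 2.14 in the other 5 mice. This came from Cidec, Adipoq and Plin1 at 8.14, 5.26 and 3.50 normalized CPM, whereas Lep had 1 count there and 6 in replicate 1 of day 21, and Ucp1 had 4. Their part in the member values was not tested. With that library left out, the log2 fold changes of the 9 genes remained negative.

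The other genes of the pathway, from lists of cycle enzymes, pyruvate entry and control of pyruvate dehydrogenase, moved the same way in most cases. Of the 31 pathway genes, 27 were called lower and 0 higher, with a median log2 fold change of -0.96. Leaving out the 9 members, the count was 20 of 22 lower with a median of -0.98. The cycle list had 15 of 17 lower, with Cs and Idh3a the exceptions, and ranged only from -1.25 for Sdha to -0.51 for Cs. All 4 succinate dehydrogenase genes fell, Sdha by 1.25, Sdhb by 1.00, Sdhc by 0.96 and Sdhd by 0.72 on the log2 scale. The entry list had 8 of 8 lower, against 7 with the upper quartile and 2 with library size alone. The mitochondrial pyruvate carrier genes Mpc1 and Mpc2 fell by 1.26 and 0.66. Mpc2 was not called without replicate 2 of day 0 (-0.54), with the upper quartile (-0.57) or with library size alone (-0.26). The complex subunits Pdhb, Dlat, Dld and Pdhx fell by between 0.80 and 0.94.

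Pcx, the pyruvate carboxylase that makes oxaloacetate directly from pyruvate and serves gluconeogenesis, was called lower with a log2 fold change near that of Pdk4. It had 701, 701 and 795 normalized CPM at day 0 and 164, 109 and 134 at day 21, with a log2 fold change of -2.43 (SE 0.16, edgeR adjusted p = 3e-06).

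**Figure D3:**
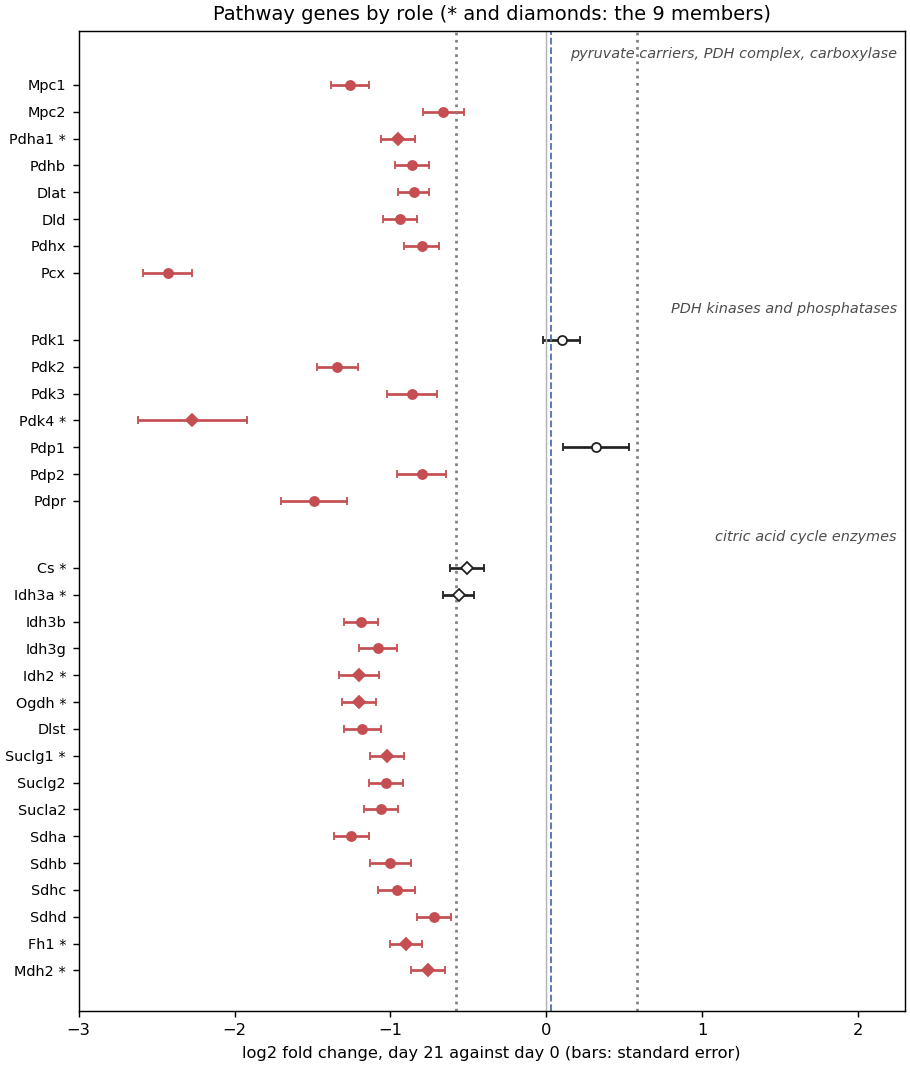
Log2 fold change of day 21 against day 0 (horizontal axis) with its standard error for 31 pathway genes grouped by role, with diamonds and an asterisk for the 9 members, red filled marks for called genes and open marks for genes not called. Dotted lines mark the 1.5-fold limits and the dashed line the median of all genes tested, 0.03. Of the open marks, Cs and Idh3a lie just inside the lower limit, and Pdk1 and Pdp1 to the right of 0.

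Ratios between genes of the same mouse do not depend on how the libraries are scaled, and were used to compare partners. For 14 such ratios the groups did not overlap in 8 and overlapped in 6. An exact permutation test on the log2 ratios gave p = 0.1 for each of the 8, the smallest it allows, and 0.175 after Benjamini-Hochberg adjustment over the 14. These pairs were chosen with the values known. Among single genes, each day 21 mouse lay below each day 0 mouse in 4374 of the 16592 tested and above in 5093. The share over all gene pairs was not computed, so the 8 are not shown to stand out.

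The subunits of NAD-dependent isocitrate dehydrogenase changed unequally. The count ratio of Idh3a to Idh3b was 0.561, 0.501 and 0.578 in the day 0 mice and 0.879, 0.816 and 0.844 in the day 21 mice, so it was higher in each day 21 mouse, by 0.63 on the log2 scale. Against Idh3g the difference was 0.52. The ratio of the regulatory subunits Idh3b and Idh3g to each other overlapped between groups and differed by -0.11 (exact permutation p = 0.3). Idh3b and Idh3g themselves fell by 1.19 and 1.08 on the log2 scale.

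Other partners kept their proportions more closely. The ratio of Suclg1 to Suclg2, its GTP-forming partner, differed by 0.01 on the log2 scale, and that to the ATP-forming partner Sucla2 by 0.03. Ogdh against Dlst, the second enzyme of its complex, differed by -0.02, and Pdha1 against Pdhb, the beta subunit, by -0.10. In these 4 ratios the groups overlapped, and leaving out 1 mouse moved the difference to no less than -0.18 and no more than 0.16.

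The ratio of Cs to Pcx was 0.504, 0.537 and 0.402 at day 0 and 1.5, 2.2 and 1.86 at day 21, so that it was higher in each day 21 mouse, with a log2 difference of 1.94. Mitochondrial and cytosolic counterparts also shifted, in opposite senses. Idh2 to Idh1 was 1.05, 1.61 and 1.24 at day 0 and 0.583, 0.851 and 0.699 at day 21, a log2 difference of -0.86. Idh1 itself had a log2 fold change of -0.34 and an edgeR adjusted p of 0.081, and this value turned to 0.04 with library size alone. Mdh2 to Mdh1 was 0.352, 0.350 and 0.346 at day 0 and 0.493, 0.538 and 0.489 at day 21, a log2 difference of 0.53, and Mdh1 fell by 1.29 on the log2 scale. Pdk4 was lower against Pdk2, Pdk1 and Pdha1 in each day 21 mouse, by 1.02, 2.45 and 1.41 on the log2 scale. The first of these rests in part on replicate 2 of day 21, without which the log2 difference between Pdk4 and Pdk2 was -0.52.

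**Figure D4:**
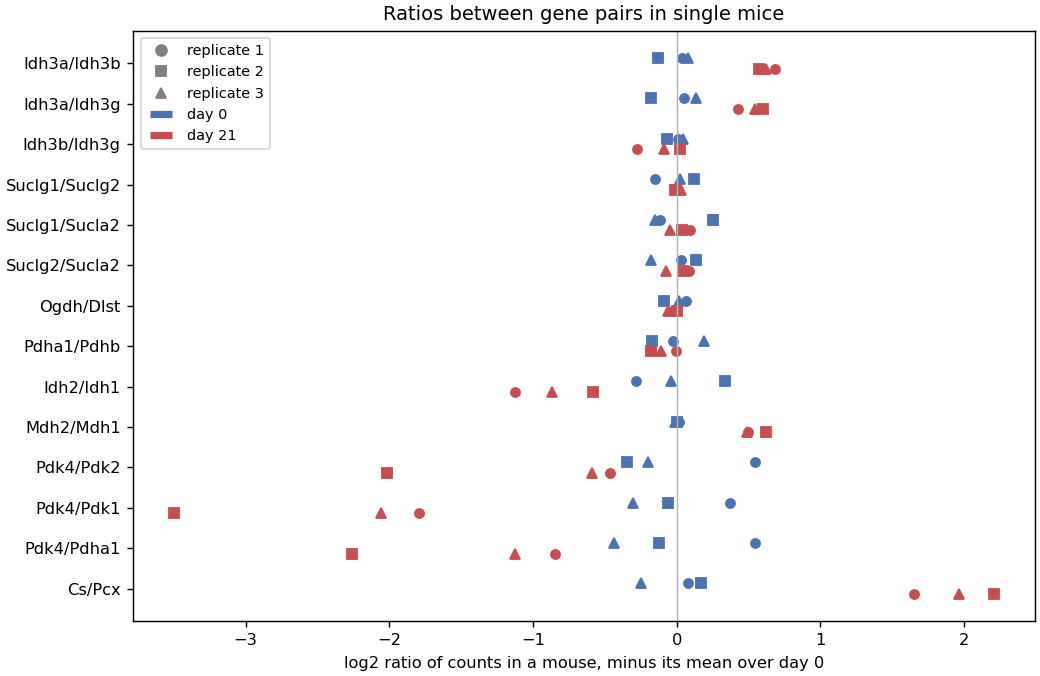
Log2 ratio of counts between 2 genes of a mouse, minus the mean of that ratio over the day 0 mice (horizontal axis), for 14 gene pairs in 3 day 0 mice (blue) and 3 day 21 mice (red), with marker shapes for replicates 1, 2 and 3. Partners such as Suclg1/Suclg2 and Ogdh/Dlst lie around 0 in both groups, whereas Idh3a/Idh3b, Cs/Pcx and Mdh2/Mdh1 lie to the right and Idh2/Idh1 and the Pdk4 ratios to the left at day 21.

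Among counterparts of the cycle outside it and exits from it, 9 of 17 were called lower and 1 higher, with a median log2 fold change of -0.60. With library size alone, 5 were lower and 2 higher with a median of -0.20, and with the upper quartile 6 were lower. Over all 16592 genes tested, library size alone called 1338 lower and 5985 higher. The genes of phosphoenolpyruvate carboxykinase, which turns oxaloacetate into phosphoenolpyruvate, parted. Pck1, the cytosolic form of gluconeogenesis, fell from 1374, 3350 and 3798 normalized CPM to 520, 315 and 482 (log2 fold change -2.69, SE 0.34, edgeR adjusted p = 0.00014). The mitochondrial form Pck2 rose from 13.8, 18.4 and 15.6 to 40.6, 39.4 and 40.1 (1.33, SE 0.14, edgeR adjusted p = 3.3e-05). Ogdhl, a paralog of Ogdh, had between 6.08 and 10.3 normalized CPM in the 6 mice with a log2 fold change of 0.06 (SE 0.22), which was -0.13 without replicate 3 of day 0.

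Genes for lipoate synthesis and succinate dehydrogenase assembly, which equip these enzymes with their cofactors, had 1 of 7 called lower, Lias at -0.67, and a median of -0.40. With library size alone, 0 of these 7 were called, the median was -0.01 and Lias was at -0.28. With the upper quartile, 0 were called as well. Of 15 transcriptional regulators known to act on mitochondrial or Pdk genes, 8 were called lower and 0 higher, with a median of -0.71. With library size alone, 4 were lower and 1 higher with a median of -0.33, and Esrra and Esrrg were no longer called. Esrrb fell from 63.3, 85.4 and 67.8 normalized CPM to 16.6, 13.8 and 19.4 (-2.12, SE 0.16, edgeR adjusted p = 6e-06). Ppara, a nuclear receptor known to induce Pdk4, fell by 1.97. Esrra, Esrrg and the coactivator Ppargc1b fell by 0.73, 0.71 and 1.24, and Ppargc1a was not called at -0.50 (SE 0.17, edgeR adjusted p = 0.034), a value that was -0.70 and called without replicate 1 of day 0 and -0.32 without replicate 3 of day 0.

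Other mitochondrial genes gave a range of changes around those of the members. The 12 protein-coding genes of mitochondrial DNA that were tested were all called lower with a median of -1.64. All genes of mitochondrial DNA, not these 12 alone, made up between 9.39% and 9.86% of all counts at day 0 and between 3.82% and 4.42% at day 21. Of 15 genes for outer membrane and import proteins of mitochondria, 4 were called lower and 0 higher, with a median of -0.39 that became 0.0 with library size alone.

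Markers of cell types also moved, those of the proximal tubule in the direction of the members and those of macrophages, fibroblasts and lymphocytes in the other. The 10 proximal tubule markers, which include Slc34a1, Lrp2 and Slc22a6, were called lower in 10 of 10 with a median log2 fold change of -1.80. They summed to between 15105 and 16961 normalized CPM at day 0 and between 3667 and 4803 at day 21. The 5 markers of thick ascending limb gave 3 lower and 1 higher, the 4 of distal convoluted tubule 3 lower, the 7 of collecting duct 5 lower, the 5 of podocytes 3 lower and the 5 of endothelium 1 lower. With library size alone, thick ascending limb gave 1 lower and 1 higher, collecting duct 4 lower and 1 higher and podocytes 1 lower, while the proximal tubule count stayed 10 of 10. The 7 macrophage markers were called higher in 7 of 7 (summed normalized CPM 150.0 to 188.8 at day 0, 798 to 1098 at day 21). So were 7 of 7 fibroblast markers (240.7 to 336 and 1162 to 2153) and the 4 of 6 lymphocyte markers that could be tested. In 5 of the 7 fibroblast markers the groups did not overlap. In Acta2 and Dcn they did, and Acta2 was near the fold limit at 0.60 (SE 0.21, edgeR adjusted p = 0.04). Of the 6 muscle markers, which summed to at most 2.92 in any mouse, only Acta1 could be tested and was called higher, and Cidec, the 1 of 5 adipocyte markers tested, was not called. The part of these shifts in the member values was not tested.

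Over the 6 mice, the genes most like Cs in pattern were Nkiras1, Atp6v0c, 1110032A03Rik, Zdhhc9 and Vps29. Likeness was the Euclidean distance between log2 CPM values centred on each gene's mean, over 13142 genes with a mean of at least 50 counts, and lay between 0.041 and 0.096 for these 5. For Pdk4 the nearest were Gldc, Aspa, Aqp4, Zbtb16 and Ppara, at the longer distances of 0.573 to 0.891. Among the 5 nearest genes of each of the 9 members, 2 of 45 were pathway genes, Idh3b beside Idh2 and Dlst beside Ogdh. The pathway has 31 genes, against the 13142 compared.

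The scaling of the libraries set how many of the 9 genes were called. TMM factors were between 0.852 and 0.886 at day 0 and between 1.12 and 1.17 at day 21. With library size alone, the median over all genes tested moved from 0.03 to 0.42 on the log2 scale. Of the 16592 genes tested, 1338 were then called lower and 5985 higher. Called lower were 4 of the 9 members (Idh2, Ogdh, Suclg1 and Pdk4) and 15 of the 31 pathway genes, while Pdp1 was called higher at 0.71. The 15 held 10 of 17 cycle genes, 2 of 8 entry genes and 3 of 7 control genes. The medians of these lists stayed below 0, at -0.63, -0.51 and -0.47. Cs then had a log2 fold change of -0.12 (edgeR adjusted p = 0.32) and Idh3a of -0.17 (edgeR adjusted p = 0.17).

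**Figure D5:**
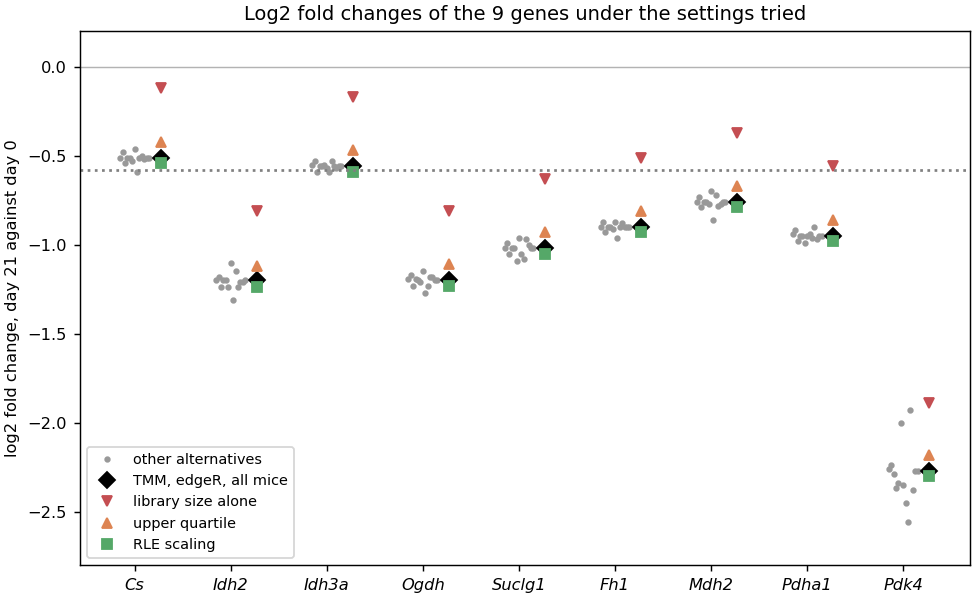
Log2 fold change of day 21 against day 0 (vertical axis) of the 9 genes with TMM scaling (black diamonds), with RLE, upper quartile and library size alone (coloured marks) and in the other fits tried (grey points), and the 1.5-fold limit as a dotted line. All marks lie below 0, and library size alone gave the value nearest 0 for each gene, from -0.12 for Cs to -1.89 for Pdk4.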

How the data were processed

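Kidney mRNA of 6 mice was sequenced by the authors as paired-end libraries, and raw counts per gene, one column per mouse, were deposited without normalization. The submitters' processing notes name TopHat and the mm10 build. The counting program, its strand setting and read filters are not given in the sources used here. Gene identifiers matched GENCODE M21 (GRCm38). The libraries held 10963849 to 14333311 counts. The floor of 3 counts was 0.179 to 0.309 normalized CPM, which covers counting error only. Replicates of a group differed by more than sampling noise (chi-square per gene 7.17 to 25.7).

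The table was fitted with edgeR 4.0.16 (R 4.3.3) after filterByExpr (minimum count 10, minimum total 15) and TMM scaling, with day 21 set against day 0 in the quasi-likelihood test and p-values adjusted by Benjamini-Hochberg across 16592 genes. Calls used the thresholds of the study's methods, an adjusted p of 0.05 and a fold of 1.5. DESeq2 1.42.0, limma 3.58.1 (voom), other scalings, filters and thresholds, a replicate block and leaving out each mouse were alternatives. In simulated counts with a 3-fold change in 200 genes, 168 changed and 10 unchanged genes were called by edgeR. Words of 50 bases shared with another gene made up 16.9% of the longest coding transcript of Pdha1, 4% for Cs (in Csl, at most 2 counts per mouse), 1.43% for Pdk4 and 0 for the other members.

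The members and lists were chosen with earlier results of these data known. Of the listed genes, 1 is not reported here and was left out of the list counts, ratios and figures. Named by rule were the members, their paralogs, partner subunits and regulators of the complex, the pyruvate carriers and carboxylase, the largest called rise and fall of each pathway list, and the 5 genes nearest in pattern to Cs and to Pdk4. Map3k15, Csl, the regulators other than Esrrb and the single cell type markers were named outside that rule, with values known. RefSeq windows matched 8 of the 9 members by symbol, all but Idh3a. Figures were drawn in Python 3.11.15.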

Additional observations from a re-analysis of the deposited data

How the results depend on the processing

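The 9 members had negative log2 fold changes under all 18 alternatives. Those that changed only the thresholds kept the values of the main fit, so they could change a call but not a direction. With library size alone, 4 members and 15 pathway genes were called lower and 1 pathway gene higher, and Idh1 turned to 0.04. Of all 16592 genes tested, 1338 were then called lower and 5985 higher, so 81.7% of all calls were higher instead of 55.8%. The median of all genes was 0.12 with the upper quartile. With thresholds of 0.01 for the adjusted p and 2 for the fold, the calls were 3172 of all genes (1254 lower and 1918 higher), 4 members and 14 pathway genes. Leaving out 1 mouse gave 5128 to 5920 calls over all genes, 7 to 9 members and 26 to 29 pathway genes lower, with 0 higher, and a range of -0.13 (without replicate 3 of day 0) to 0.23 for Ogdhl. The causes of these shifts were not tested beyond the stricter threshold and the scaling itself. Idh3a was also called with RLE scaling and with DESeq2, at -0.59. Over the single genes named, 729 comparisons of an alternative with the value reported kept direction and side of the threshold, 34 lost the call, 9 gained it and 2 reversed.

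Same-numbered mice correlated at -0.0297, 0.177 and 0.106 in their deviations from the group means, and replicate 3 of day 0 correlated best with replicate 1 of day 21 (0.133). Whether same-numbered mice also shared a batch or an order of handling cannot be told from these values, and the labels name no batch. With a replicate block, 5758 genes were called in all, with 7 members and 27 pathway genes lower.

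With 3 mice per group, depths of 10963849 counts or more did not limit the members, each of which had at least 325 counts in every mouse.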
